A study of Mus musculus with 4 samples.

Results

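Transcripts of the nuclear genes of respiratory complex I were followed in RNA of activated mouse splenic T cells. All 45 protein-coding rows of the gene table whose symbol begins with Nduf were taken, out of 35275 genes in all. They comprised 36 subunits of the complex, 7 assembly factors named Ndufaf, and 2 genes of the NDUFA4 family. The groups were Cers6 knockout mice at 8 months, Cers6 knockout mice at 2 months, wild-type mice at 8 months and wild-type mice at 2 months of age, all on the C57BL/6 background, and values of the 4 libraries follow in that order. Cers6 encodes ceramide synthase 6, which joins a fatty acyl chain to a sphingoid base. Before RNA extraction the splenic T cells of every group had been stimulated for 3 days with antibodies to CD3 and CD28 and with IL-2. Each group had 1 library. The series text speaks of duplicates, and the labels say neither how many mice stood behind a library nor how the knockout was made. The design addresses how expression differs with the loss of the enzyme and with age.

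Complex I takes electrons from NADH, passes them along a chain of iron-sulfur clusters to ubiquinone, and pumps protons across the inner mitochondrial membrane. It is L-shaped. The peripheral arm in the matrix holds the N module, which oxidises NADH, and the Q module, which reduces ubiquinone, and the membrane arm holds the proton pumps, whose core subunits are encoded by the mitochondrial genome. Accessory subunits surround these core proteins and are nuclear encoded, and assembly factors join the parts without remaining in the finished enzyme. Resting T cells build up mitochondrial mass and respiratory capacity after activation.

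The libraries held 18145555 to 24239344 counts. Levels are scaled CPM, that is counts relative to the library total after TMM scaling (a factor per library from the genes that differ least). Intervals are at 95% and take in counting error alone. Cers6 (GRCm38 chromosome 2, 68861441 to 69114282) stood at 3.38 and 9.17 CPM in the knockout libraries (8, then 2 months), against 32.0 and 13.1 CPM in the wild-type ones (8, then 2 months). The log2 difference of knockout over wild type was -3.21 at 8 months. At 2 months it was -0.51 (-0.80 to -0.23), a smaller gap than the 1.28 between the wild-type libraries of 8 and 2 months, so the target gene checks the knockout label less firmly at 2 months. The labels do not say which part of the gene was deleted, and it was not at 0 in either knockout library. Defining T cell markers were present in every library, with 2940, 3779, 3357 and 3656 CPM summed over 13 genes. The 12 B cell markers summed to 1612, 2294, 3785 and 2670 CPM, so transcripts of B cells were also present throughout. Cd4 stood at 202, 127, 24.6 and 114.7 CPM, lowest in the wild-type library at 8 months. It went against most of the T cell markers, of which 10 were lower and 3 higher in the knockout at 8 months. The median log2 difference of the 13 was -0.26. The 10 neutrophil markers summed to 6.38, 0.464, 106 and 2.18 CPM, the 12 monocyte and macrophage markers to 27.6, 13.8, 99.8 and 25.2 CPM, and the 8 NK cell markers to 204, 143, 56.6 and 172 CPM. Of the monocyte and macrophage markers 3, 6, 2 and 0 were at 0, of the neutrophil markers 0, 5, 0 and 2, and of the NK cell markers 0, 0, 3 and 0, while no T or B cell marker was at 0 in any library. Their part in the results below was not tested.

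Complex I subunit transcripts were lower in the knockout than in wild type at 8 months across both arms of the enzyme. Of the 36 subunits, 35 were lower in the knockout library, 28 of them by 1.5-fold or more and 8 by 2-fold or more. The median log2 difference was -0.79, which is 42.1% lower, and the range ran from -1.24 to 0.04. Among the 12133 genes with at least 2 CPM in at least 1 library, 50.3% were lower, 18.5% were lower by 1.5-fold or more and 6.47% by 2-fold or more, with a median of 0.00. The subunits lower by 1.5-fold or more numbered 16 with library size alone, 15 with per-library offsets smoothed on gene length and 14 with offsets on length and GC share. The share of all genes was not counted under these settings, and library size alone moved the median of all genes upward. The counting interval lay below 0 for 34 subunits and held 0 for the other 2, Ndufa6 and Ndufb2. Such intervals are narrow for genes with many counts, and how many of all genes had an interval without 0 was not counted. With 1 library per group these are differences between libraries, without a test. In bulk RNA, fewer cells of a type and less RNA per cell cannot be told apart.

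The 7 nuclear core subunits, which carry the flavin and the iron-sulfur clusters, were all among the 28. In the N module, Ndufv1, which binds NADH and the flavin, measured 58.8, 85.9, 107 and 102 CPM. Ndufv2, an iron-sulfur protein beside it, measured 84.8, 111, 131 and 127 CPM. Ndufs1, the largest subunit of the peripheral arm, measured 39.1, 65.0, 64.4 and 63.8 CPM. In each of these the knockout library at 8 months was the lowest and the wild-type libraries lay close together. Their log2 differences of knockout over wild type at 8 months were -0.86 for Ndufv1, -0.62 for Ndufv2 and -0.72 for Ndufs1.

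In the Q module, Ndufs8 (ENSMUSG00000059734, GRCm38 chromosome 19, 3908870 to 3912717), an iron-sulfur protein of the electron path, measured 33.4, 69.2, 74.6 and 80.5 CPM. Ndufs7, which carries the last iron-sulfur cluster before ubiquinone, measured 35.6, 57.8, 74.2 and 72.4 CPM. For both the knockout library at 8 months was more than 2-fold below the wild-type library of the same age, with log2 differences of -1.16 for Ndufs8 and -1.06 for Ndufs7. Ndufs3, another core subunit of the module, measured 52.6, 85.2, 96.8 and 94.2 CPM, a log2 difference of -0.88.

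Accessory subunits spread more widely. The 9 of the peripheral arm had a median of -0.90 with 5 at 1.5-fold lower, and the 19 of the membrane arm a median of -0.72 with 16 at 1.5-fold lower. Ndufa5 (ENSMUSG00000023089, GRCm38 chromosome 6, 24518666 to 24528013), an accessory subunit next to the Q module, had the lowest difference of all, -1.24 (-1.41 to -1.09), with 20.2, 35.9, 47.9 and 48.4 CPM. Ndufa9 (ENSMUSG00000000399, chromosome 6, 126821863 to 126849144), which sits where the arms meet and binds a nucleotide, measured 48.7, 103, 107 and 112 CPM, a difference of -1.14. Ndufs6, a zinc-binding subunit of the peripheral arm, measured 27.1, 56.6, 56.8 and 59.8 CPM, a difference of -1.06. Ndufa9 and Ndufs6 were nearly level in the knockout library at 2 months and both wild-type libraries, so only the knockout library at 8 months stood apart. In Ndufa5 the knockout library at 2 months was also below wild type.

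**Figure D1:**
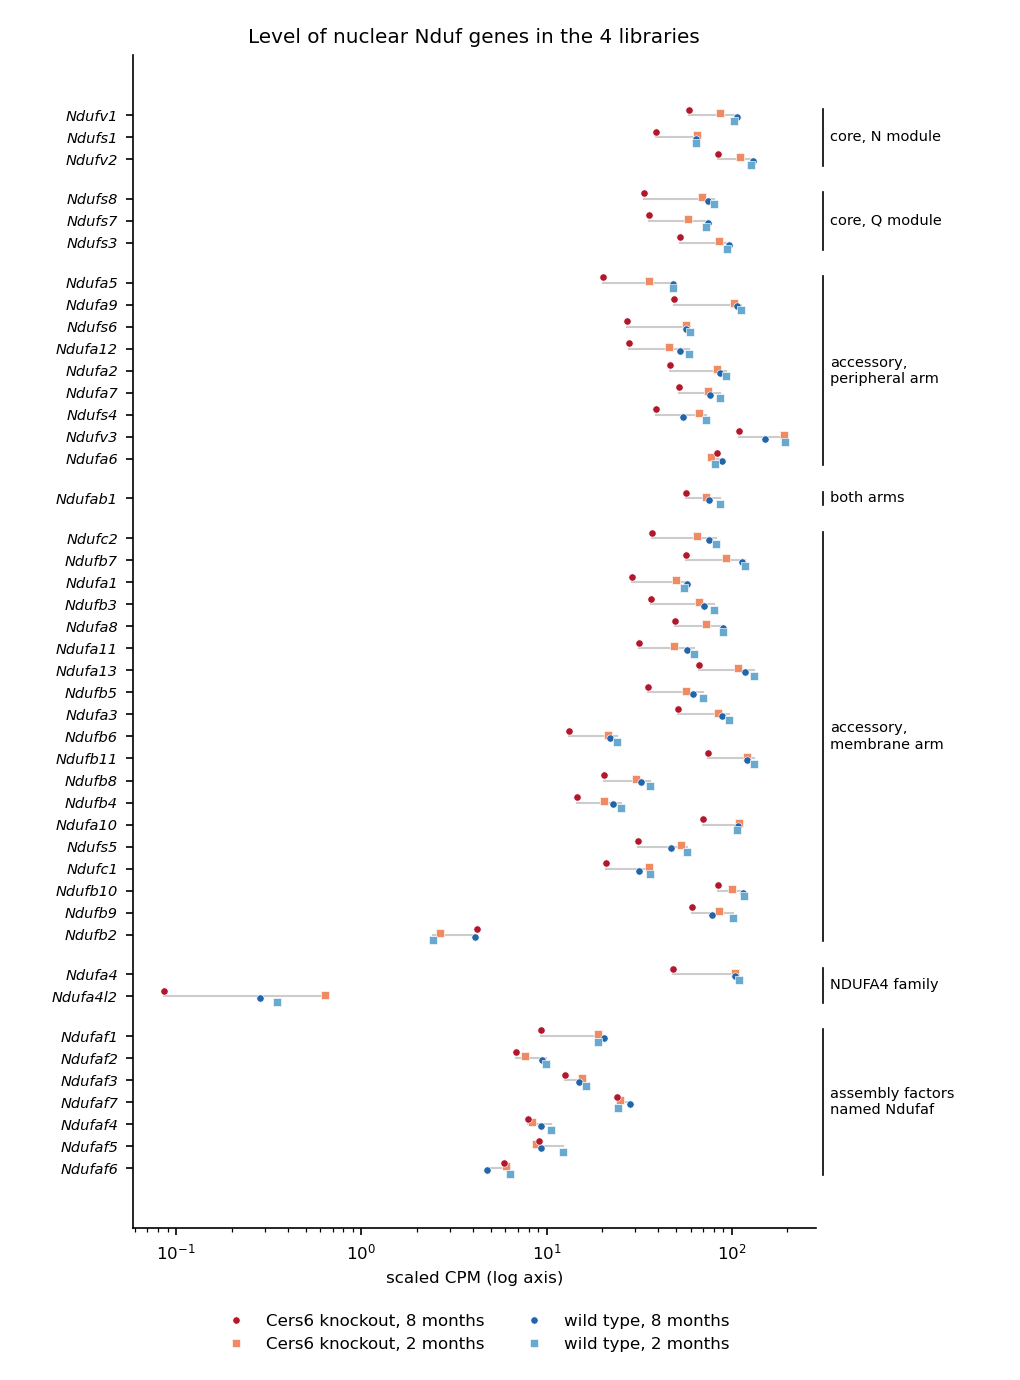
Scaled CPM (log axis) of 44 nuclear Nduf genes in each of the 4 libraries, 1 point per library, grouped by role, with the grey line joining the lowest and the highest library. For 33 of the 35 subunits drawn the knockout library at 8 months is the lowest point. The share of all genes lowest in that library was not counted.

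Besides Ndufb2, 7 subunits were less than 1.5-fold lower at 8 months. Ndufa6 (ENSMUSG00000022450, GRCm38 chromosome 15, 82350139 to 82354291) measured 83.6, 77.1, 88.5 and 80.7 CPM, a difference of -0.08 (-0.17 to 0.01). Ndufb9 measured 61.1, 85.5, 78.0 and 101 CPM, a difference of -0.35. Ndufab1, the mitochondrial acyl carrier protein, measured 56.4, 72.3, 75.7 and 86.3 CPM, a difference of -0.42. NDUFA6 and NDUFB9 are the LYR-motif subunits of the enzyme, and each docks a copy of the acyl carrier protein. These 3 were the subunits nearest to no difference after Ndufb2. They were picked by that value, and a link to their shared role was not tested. By age in the knockout, Ndufa6 was at 0.12, Ndufb9 at -0.48 and Ndufab1 at -0.36. For knockout over wild type at 8 months, the others of the 7 were Ndufb10 at -0.46, Ndufv3 at -0.46, Ndufs4 at -0.49 and Ndufa7 at -0.57. Ndufc1 and Ndufs5, both at -0.59, lay just past 1.5-fold.

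Ndufb2 (ENSMUSG00000002416, GRCm38 chromosome 6, 39592574 to 39603382), an accessory subunit of the membrane arm, was the sole subunit above 0 at 8 months, at 0.04 (-0.38 to 0.48), and its counts were the fewest. It had 99, 46, 87 and 56 counts, against at least 310 counts for each other subunit in any library. It shares 4022 bases on the same strand with Adck2, which had 552, 377, 565 and 515 counts. The sources used here do not say how reads in shared bases were counted, so the value of Ndufb2 is uncertain. Of the 45 Nduf genes, 8 overlap another gene with 10 or more counts, and the only other pair on 1 strand is Ndufa13 with Yjefn3, which had 57, 18, 71 and 37 counts. Strandedness is not given either, so reads of genes that overlap on opposite strands, such as Ndufb11 and Rbm10 over 117 bases, cannot be told apart.

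**Figure D2:**
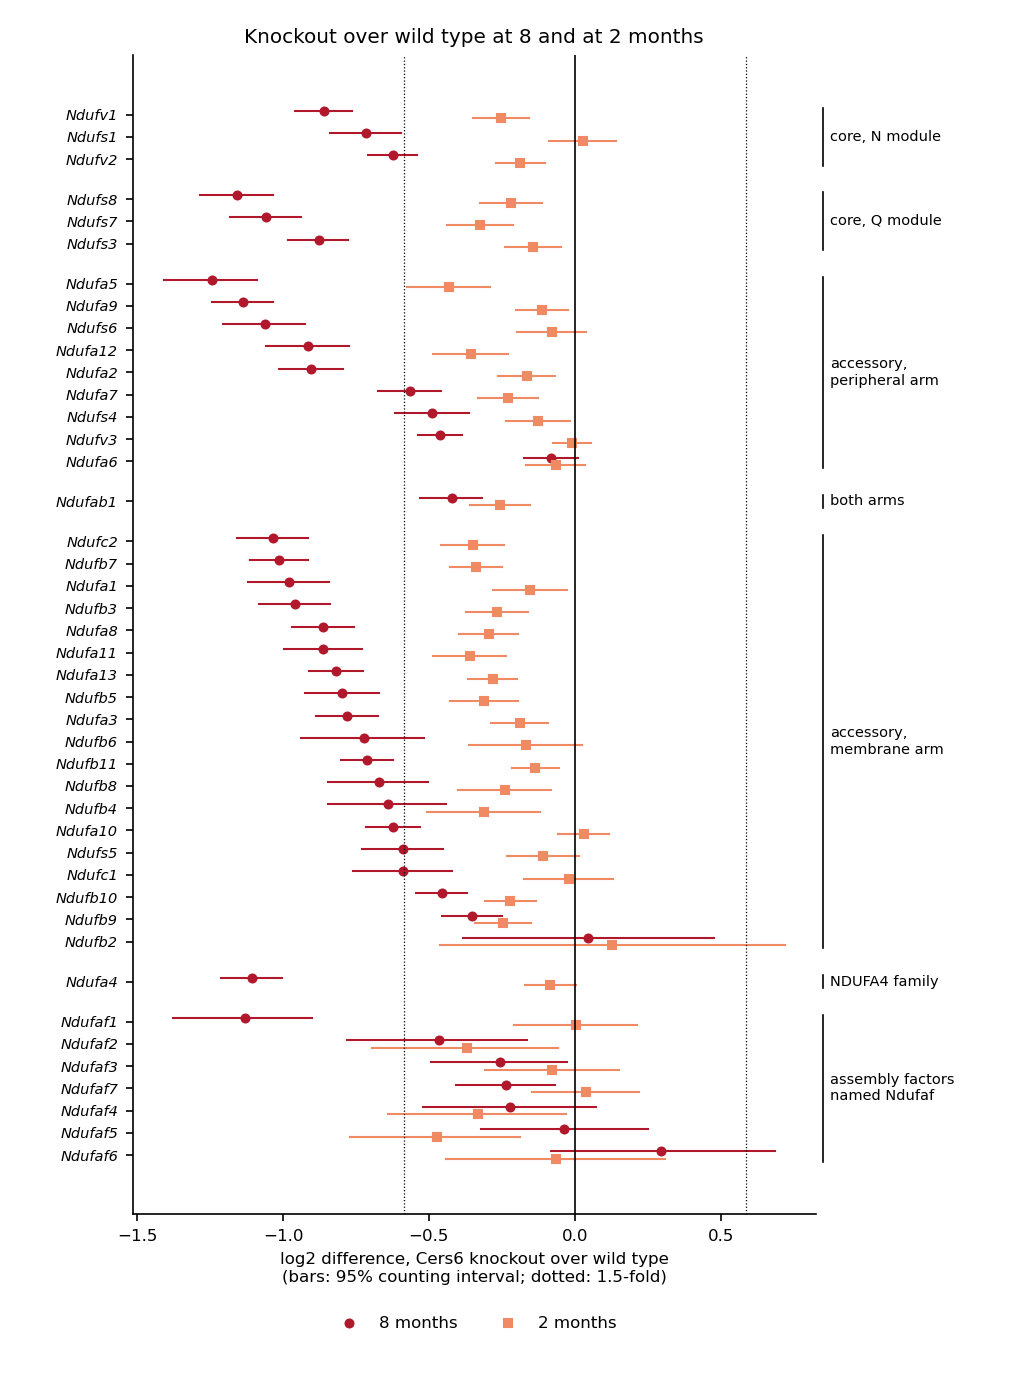
Log2 difference of knockout over wild type at 8 months (circles) and at 2 months (squares) for 43 Nduf genes by role, with 95% counting intervals as bars and dotted lines at 1.5-fold. The 8-month points of 27 of the 35 subunits drawn lie left of the lower dotted line, and no 2-month point of a subunit does.

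At 2 months the difference had the same direction and was smaller. Of the 36 subunits, 33 were lower in the knockout library, with a median log2 difference of -0.22, which is 14.1% lower, and a range of -0.43 to 0.13. None was lower by 1.5-fold or more, against 6.0% of the 12133 genes, of which 51.1% were lower at any size. The counting interval lay below 0 for 27 subunits and held 0 for 9, and the same was not counted over all genes. Ndufa5 was again the lowest, at -0.43 (-0.58 to -0.29). Ndufa11, an accessory subunit of the membrane arm, followed at -0.36, with 31.6, 48.8, 57.6 and 62.7 CPM. Ndufa12, the subunit related to the assembly factor NDUFAF2, was at -0.36, with 28.0, 46.1, 52.8 and 59.1 CPM. At the upper end stood Ndufb2 at 0.13, Ndufa10, a membrane arm subunit with a kinase-like fold, at 0.03, and Ndufs1 at 0.03. Ndufa10 measured 69.9, 109, 108 and 107 CPM, low in the knockout library at 8 months only. With per-library offsets smoothed on gene length the 2-month median was -0.06, and with offsets on length and GC share it was -0.03. With either, 23 of 36 subunits were lower. The share of all genes that were lower was not counted with these offsets.

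All 36 subunits had a lower knockout over wild type difference at 8 than at 2 months. The 8-month minus 2-month value had a median of -0.57 on the log2 scale and ran from -1.03 in Ndufa9 to -0.02 in Ndufa6. Among the 12133 genes, 52.9% had a lower difference at 8 than at 2 months, with a median of -0.05. After Ndufa9 came Ndufs6 at -0.98 and Ndufs8 at -0.94. Ndufb2 at -0.08 and Ndufb9 at -0.11 lay next to Ndufa6 at the other end. The difference between ages takes up all 4 libraries and leaves no spread to test it with.

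With age, the subunits were lower in the knockout and nearly level in wild type. In the knockout, 34 of 36 were lower at 8 than at 2 months, with a median log2 difference of -0.70, 25 of them by 1.5-fold or more and 3, namely Ndufa9, Ndufs6 and Ndufs8, by 2-fold or more. Among the 12133 genes 52.6% were lower, 15.4% by 1.5-fold or more and 4.71% by 2-fold or more, and 19.3% were higher by 1.5-fold or more. In wild type, 25 of 36 were lower, with a median of -0.11, and none by 1.5-fold or more, against 52.9% and 6.68% of all genes. The counting interval in wild type lay below 0 for 17 subunits, above 0 for 3 and held 0 for 16, again without a count over all genes. The lowest in wild type was Ndufs4, whose loss in mice gives a model of Leigh syndrome, at -0.41, with 38.9, 66.8, 54.6 and 72.9 CPM. Ndufv3, an N module accessory subunit, was at -0.36, with 110, 192, 151 and 194 CPM. These and Ndufb9, at -0.38, were the only subunits with a log2 difference under -0.30 by age in wild type. Ndufb2 was the 1 subunit higher by 1.5-fold or more, in the knockout at 0.65 and in wild type at 0.73. In wild type 7.18% of all genes were higher by 1.5-fold or more. Both counting intervals of Ndufb2 lay above 0. The age comparison in the knockout and the genotype comparison at 8 months share the knockout library at 8 months, so they are not independent. In the knockout, offsets on length left 16 subunits lower by 1.5-fold or more with age, offsets on length and GC share 14, and library size alone 4. The share of all genes was not counted under these settings.

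Summed over the 36 subunits, the level in the knockout was 1716 CPM at 8 months, with an interval of 1700 to 1733, and 2686 CPM at 2 months, with an interval of 2661 to 2710. In wild type it was 2895 CPM at 8 months, interval 2872 to 2918, and 3070 CPM at 2 months, interval 3047 to 3093. The knockout library at 8 months thus held the smallest sum and the wild-type library at 2 months the largest. The sums made up 0.197%, 0.255%, 0.280% and 0.291% of library counts. For knockout over wild type, the log2 ratio of sums at 8 months was -0.75, interval -0.77 to -0.74, and at 2 months -0.19, interval -0.21 to -0.18. By library, 34 subunits were lowest in the knockout at 8 months, and 25 were highest in wild type at 2 months. How many of all genes were lowest or highest in these libraries was not counted, so the numbers have no background to be read against.

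In the additive model of genotype and age, which uses all 4 libraries, no subunit passed. For genotype, 0 of 36 subunits were called at an adjusted p under 0.05 by edgeR's quasi-likelihood test with Benjamini-Hochberg adjustment. Of 13906 genes tested, 0.0216% were called lower and 0.00719% higher. Unadjusted p from edgeR was under 0.05 for 14 subunits, all lower, and for 8.36% of all genes. DESeq2 and limma-voom also called 0, with 11 and 16 subunits at an unadjusted p under 0.05, against 5.94% and 9.79% of all genes. In edgeR that count was 4 with library size alone, where 6.75% of genes were, 3 with length offsets, where 5.82% were, and 1 with length and GC offsets, where 4.8% were. With 1 library left out, 1 genotype and 1 age are each left with a single library. Effect sizes alone are therefore given here for those fits. With all 4 libraries the median genotype effect was -0.49. The lowest adjusted p from edgeR was 0.534, for Ndufa5 (log2 -0.83, SE 0.27, lower at both ages). For age, edgeR called 0 of 36 subunits, against 0.036% of genes called lower and 0.194% called higher. Unadjusted p was under 0.05 for 2 subunits and for 8.22% of all genes. DESeq2 and limma-voom called 0, with 2 and 4 subunits at an unadjusted p under 0.05, against 5.84% and 9.13% of all genes. The median age effect was -0.38, and the lowest adjusted p was 0.527, for Ndufs4 (log2 -0.58, SE 0.24, lower in both genotypes). The model has 1 residual degree of freedom, and a genotype effect that differs between ages counts as spread in it. With age dropped, the median genotype effect was -0.17 without the knockout library at 8 months and -0.83 without the knockout library at 2 months. In these 2 fits 1 knockout library was set against wild-type libraries of both ages, so genotype and age were not separated. Without the wild-type library at 8 months, with genotype dropped, the median age effect over the subunits was -0.78. Without the knockout library at 8 months, with genotype also dropped, the median age effect was 0.004.

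In the authors' deposited table, 0 of the 45 Nduf genes had an adjusted p under 0.05 in any of its 4 comparisons. The lowest adjusted p in the authors' deposited table was 0.0700 for knockout against wild type at 8 months and 0.158 for 8 against 2 months in the knockout.

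The assembly factors had values on both sides of 0 at 8 months. Over the 7 Ndufaf genes the median log2 difference of knockout over wild type was -0.24 at 8 months and -0.08 at 2 months. At 2 months none was lower by 1.5-fold or more, against 6.0% of the 12133 genes. At 8 months 1 of the 7 was, against 18.5% of the 12133 genes. That gene was Ndufaf1 (ENSMUSG00000027305, GRCm38 chromosome 2, 119655446 to 119662827), a member of the complex that builds the membrane arm. It measured 9.33, 18.9, 20.5 and 18.9 CPM. The log2 difference at 8 months was -1.13, with an interval of -1.38 to -0.90, and at 2 months 0.0023, with an interval of -0.21 to 0.21, so only the knockout library at 8 months was low.

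Ndufaf2, the relative of the subunit NDUFA12, measured 6.81, 7.66, 9.44 and 9.93 CPM, a difference of -0.47 at 8 months. Ndufaf3 and Ndufaf4, which act together on the Q module, were at -0.26 and -0.22. Ndufaf5, which hydroxylates NDUFS7, was at -0.04, and Ndufaf7, a methyltransferase, at -0.24. None of these 5 genes reached 1.5-fold. Ndufaf6, which takes part in early assembly, was the 1 member above 0 at 8 months, at 0.29 (-0.08 to 0.68), with 5.86, 6.04, 4.77 and 6.31 CPM. At 2 months the lowest was Ndufaf5, at -0.47 (-0.77 to -0.19), with 9.16, 8.83, 9.39 and 12.3 CPM. Ndufaf8 stands in the table under an older clone name, outside the symbol rule, and measured 9.89, 15.2, 18.6 and 16.5 CPM, a difference of -0.91 at 8 months.

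Over 12 assembly factors with other names the median at 8 months was -0.20. Of these, 4 were lower by 1.5-fold or more, against 18.5% of the 12133 genes. They were Nubpl, Tmem261 at -0.85, Chchd4 at -0.82 and Tmem70 at -0.59, the last 3 named after their values were seen. Nubpl, which delivers iron-sulfur clusters, measured 6.21, 11.3, 12.3 and 11.4 CPM, a difference of -0.97. Ecsit and Acad9, partners of NDUFAF1, were at 0.02 and -0.42. The difference between assembly factors and subunits was not tested.

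Ndufa4 (ENSMUSG00000029632, GRCm38 chromosome 6, 11900373 to 11907446), first counted with complex I and since assigned to complex IV, measured 48.2, 104, 104 and 110 CPM. The log2 difference of knockout over wild type at 8 months was -1.10, interval -1.21 to -1.002, and at 2 months -0.08, interval -0.17 to 0.00. The other 3 libraries were nearly level. Its relative Ndufa4l2, which hypoxia induces in other cells, had 2, 11, 6 and 8 counts, under the level filter, and no fold is given for it.

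**Figure D3:**
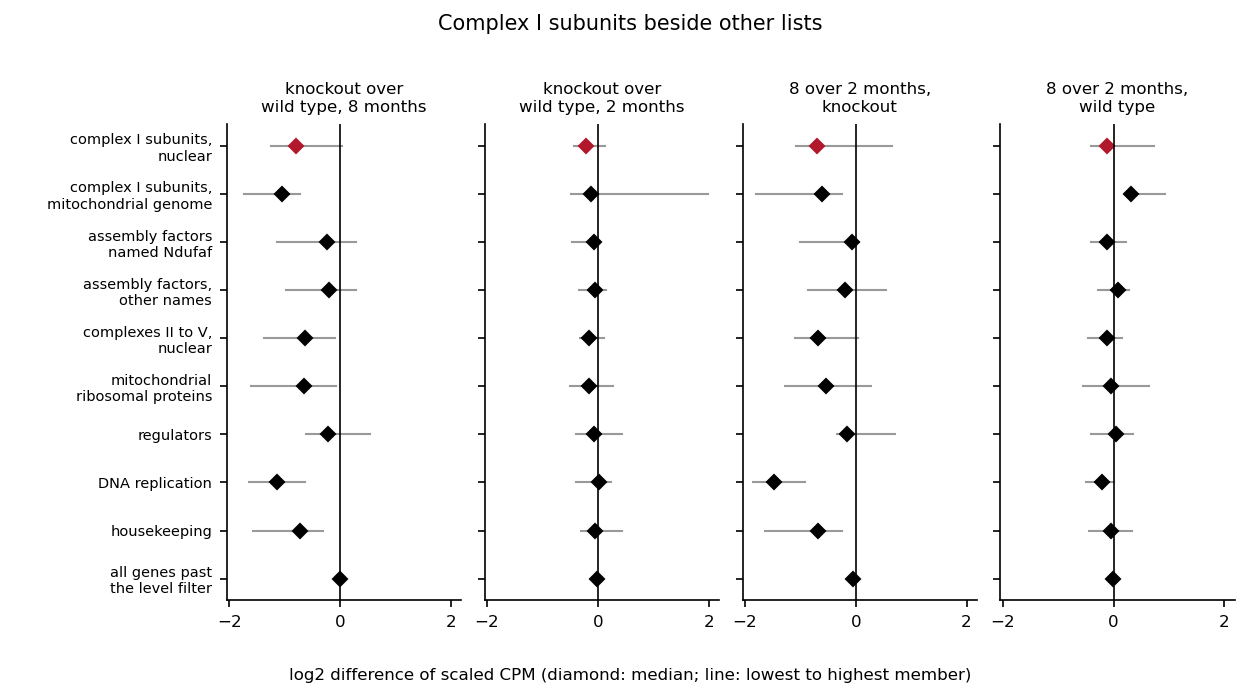
Median (diamond) and range from the lowest to the highest member (line) of the log2 difference in each of the 4 comparisons, for nuclear complex I subunits (red) and other lists, with the median alone for all genes. In the 8-month knockout over wild type panel the subunit median is -0.79 and that of all genes is 0.00, and the medians of complexes II to V, mitochondrial ribosomal proteins, DNA replication and housekeeping genes also lie left of 0.

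The core subunits of the membrane arm come from the mitochondrial genome. Of the 7 mt-Nd genes, mt-Nd4l had 4 to 17 counts and was left out. The other 6 were all lower in the knockout at 8 months by 1.5-fold or more, with a median of -1.04, and 3 were lower at 2 months, with a median of -0.12. The lowest at 8 months was mt-Nd6, with 237, 645, 790 and 565 CPM, a difference of -1.74. It is encoded on the other strand from its neighbour mt-Nd5, and strandedness is not given. The highest was mt-Nd3, with 9.72, 34.1, 16.1 and 8.49 CPM and differences of -0.73 at 8 months and 2.00 at 2 months. With age the 6 genes were all lower in the knockout, with a median of -0.62, and all higher in wild type, with a median of 0.32, where the nuclear subunits had a median of -0.11.

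**Figure D4:**
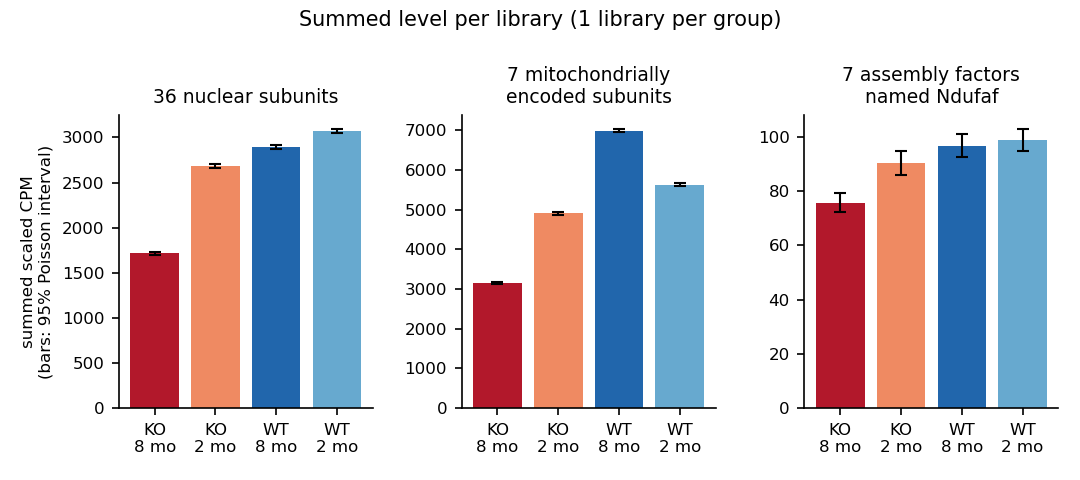
Summed scaled CPM per library, from 0, of the 36 nuclear subunits, the 7 mitochondrially encoded subunits and the 7 Ndufaf genes, with 95% Poisson intervals. In all 3 panels the knockout library at 8 months is the lowest. The highest is wild type at 2 months for the nuclear subunits and wild type at 8 months, at 6992 CPM, for the mitochondrially encoded ones.

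Other nuclear genes of the respiratory chain had values like those of complex I. All 39 genes of complexes II to V were lower in the knockout at 8 months, 24 by 1.5-fold or more, with a median of -0.63, and the median at 2 months was -0.16. Atp5g1, a subunit of the rotor ring of ATP synthase, measured 31.3, 66.5, 81.4 and 78.3 CPM, a difference of -1.38. Cox5b, a complex IV subunit, measured 93.9, 190, 209 and 228 CPM, a difference of -1.15. All 76 genes of mitochondrial ribosomal proteins past the level filter were lower at 8 months, 42 by 1.5-fold or more, with a median of -0.65. A difference between these lists and complex I was not tested.

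Genes of other processes were also lower in the knockout library at 8 months. All 19 DNA replication genes past the level filter were lower by 1.5-fold or more. Their median at 8 months was -1.14, and at 2 months 0.02. Cdc45, a part of the replicative helicase, measured 20.9, 72.3, 64.4 and 77.7 CPM. All 25 housekeeping genes were lower at 8 months, with a median of -0.73, against -0.05 at 2 months. Ldha, the lactate dehydrogenase of glycolysis, measured 1078, 3344, 3194 and 3456 CPM. Across the 12133 genes the 8-month difference had a Spearman correlation of -0.26 with mean log2 CPM, as a description over genes of the same libraries. The part of these values in the complex I result was not tested.

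Known regulators of respiratory chain genes had a median of -0.21 at 8 months over 11 genes past the level filter. Of the 11, 1 was lower by 1.5-fold or more, against 18.5% of the 12133 genes. Nrf1, a factor that binds promoters of many respiratory genes, measured 55.3, 61.4, 61.2 and 66.4 CPM. Gabpa, an ETS factor, measured 78.7, 92.9, 66.4 and 69.9 CPM, and Yy1 measured 121, 152, 111 and 112 CPM. Their log2 differences at 8 months were -0.15, 0.25 and 0.13. Pprc1, a coactivator of the PGC-1 family, was the 1 at 1.5-fold lower, with 23.1, 27.2, 35.5 and 30.7 CPM. Its relative Ppargc1b was higher, at 0.54, with 5.65, 5.11, 3.87 and 5.18 CPM. Nrf1, Gabpa and Yy1 were shown because their motifs were searched next, beyond the rule for named genes.

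Promoter sequence was examined because the subunits lay on the same side of 0 together. RefSeq windows (build GRCm38.p6) from 250 bases before to 50 bases after the start were held for 39 of the 45 Nduf genes, 32 of them subunits, and for 17637 genes of the table. The YY1 letters AAGATGG, on either strand, occurred in 7 of the 32 subunit windows, 21.9%, against 6.46% of all windows. In all 7 they lay after the start on the sense strand, which held for 26.4% of all windows with these letters. In each of the 7 the ATG within the letters was an annotated start codon (GENCODE M21). How often this held over all windows with these letters was not counted. Short stretches around the letters are shown aligned, 5′ to 3′, with the letters in capitals, since they share position as well as letters. The coordinates, in the same order, are chr7:3617380-3617406 (+), chr6:126849104-126849130 (-), chr19:44555393-44555419 (-), chr3:51408922-51408948 (-), chr13:114388048-114388074 (-), chr13:73328438-73328464 (-) and chr10:80249458-80249484 (+).
Ndufa3: gtcgccgccaagaacAAGATGGccggg
Ndufa9: gaggcattgtgggagAAGATGGcggcc
Ndufb8: accgcggagaaggtgAAGATGGctgcc
Ndufc1: cggagcctgcggaacAAGATGGcgccg
Ndufs4: gcgtttgcctacaggAAGATGGcggcg
Ndufs6: tcaagggtcaccggcAAGATGGcggcg
Ndufs7: ctgaaggccgaggccAAGATGGcggcg

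The 8-month difference did not separate by these letters: its median was -0.78 in the 7 subunits that hold them and -0.80 in the 25 that lack them. NRF1 letters, GCGCATG on either strand, were in 5 subunit windows, 15.6%, against 4.93% of all windows, with medians of -0.72 with and -0.80 without. ETS letters, CCGGAAG, were in 4, 12.5%, against 11.7%, with medians of -0.95 and -0.75. Letters of at least 1 of the 3 motifs were in 14 of the 32, 43.8%, against 20.9% of all windows. The ERRA letters AAGGTCA were in 3 subunit windows, 9.38%, against 3.93%. The E box CACGTG was in 2, 6.25%, against 7.94%, the GC box GGGCGG in 15, 46.9%, against 46.3%, and CCAAT in 10, 31.2%, against 38.5%. No motif is contained in another, and windows can hold several.

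The 100 bases before the start are shown for the subunits with the lowest and the highest 8-month difference, Ndufa5 and Ndufb2, and for Ndufa4. Ndufa6 and Ndufs3 are added after their values were seen, as examples with NRF1 letters and with ETS letters, which are in capitals. In the order printed they lie at chr6:24527691-24527790 (-), chr6:39592465-39592564 (+), chr6:11907451-11907550 (-), chr15:82354292-82354391 (-) and chr2:90904722-90904821 (-). The RefSeq start used for Ndufa5 lies 323 bases from the start in the deposited table. For Ndufs7, whose YY1 stretch is shown above, the distance is 328 bases. Of the 32 subunit windows, 27 have a start within 100 bases of the deposited one.
Ndufa5: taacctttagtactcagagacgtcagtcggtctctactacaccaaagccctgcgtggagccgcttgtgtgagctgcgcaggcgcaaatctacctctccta
Ndufb2: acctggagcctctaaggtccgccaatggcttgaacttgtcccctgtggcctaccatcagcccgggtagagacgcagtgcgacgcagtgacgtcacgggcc
Ndufa4: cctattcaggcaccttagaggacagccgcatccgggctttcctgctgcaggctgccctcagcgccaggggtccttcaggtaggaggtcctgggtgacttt
Ndufa6: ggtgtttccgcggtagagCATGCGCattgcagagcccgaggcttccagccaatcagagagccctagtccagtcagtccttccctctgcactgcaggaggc
Ndufs3: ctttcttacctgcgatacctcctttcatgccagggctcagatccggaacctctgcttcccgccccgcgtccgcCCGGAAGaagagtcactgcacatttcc

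Levels between genes were compared per length, as deposited FPKM. The median over the 36 subunits was 47.6, 71.3, 76.8 and 79.6 FPKM. The highest mean levels were those of Ndufa6, at 148 FPKM, Ndufa2, a peripheral arm subunit with a thioredoxin fold, at 133 FPKM, and Ndufb9, at 124 FPKM. The lowest were Ndufb2 at 0.783 FPKM, Ndufb8 at 13.8 FPKM and Ndufa11 at 18.6 FPKM. Their deposited lengths were 4371, 2142 and 2661 bases, against a subunit median of 1014.5 bases. In CPM, which takes no account of length, Ndufb8 and Ndufa11 lay above Ndufb6 in every library. The order of the subunits was much the same in every library, with Spearman correlations of 0.971 to 0.989 between libraries over the 36 genes, a description of one gene set in libraries that share gene lengths. Ndufa6 was the highest in both libraries at 8 months, with 171, 131, 153 and 137 FPKM. Ndufa2 was the highest in both libraries at 2 months and ranked below Ndufb10, Ndufb9 and Ndufb11 in the knockout library at 8 months, with 93.0, 138, 147 and 155 FPKM.

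The size of the differences moved with the handling of gene length and with the scaling. The subunits had a median deposited length of 1014.5 bases, against 3002 bases over the 12133 genes. Over those genes the knockout over wild type difference had a Spearman correlation with length of 0.30 at 8 months and 0.37 at 2 months, and within the 36 subunits of 0.12 and -0.02. With offsets smoothed on length, 15 subunits were lower by 1.5-fold or more at 8 months, with a median of -0.53, and with offsets on length and GC share 14, with a median of -0.49. With library size alone, 16 were, with a median of -0.54, while the median of all genes moved to 0.25, so the gap between subunits and all genes stayed near that reported. The share of all genes lower by 1.5-fold or more was not counted under these settings. The direction of the subunit median was the same in all 8 alternatives at each age.

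**Figure D5:**
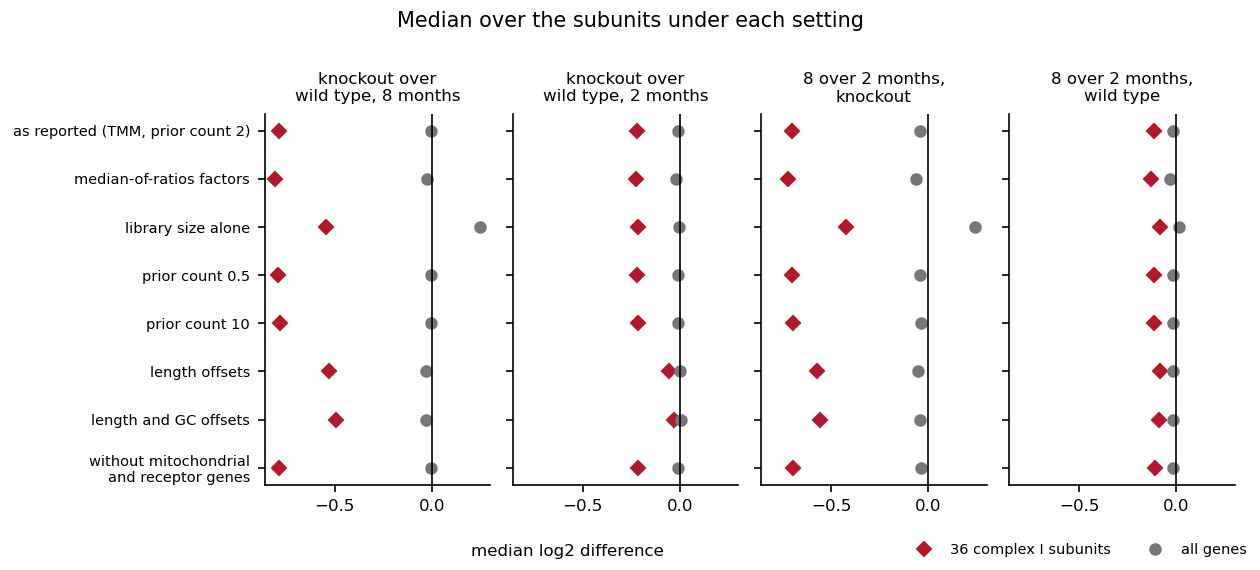
Median log2 difference over the 36 subunits (diamonds) and over all genes (circles) in the 4 comparisons, under TMM scaling with a prior count of 2 and under 7 other settings. At 8 months the subunit median runs from -0.81 to -0.49 and at 2 months from -0.23 to -0.03, and library size alone moves the median of all genes to 0.25.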

How the data were processed

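Each of the 4 groups was 1 library, assigned from the labels, and p-values measure only the spread between these libraries, which may be technical. The submitters' processing notes list the tools CASAVA and STAR, and GRCm38 and mm10 as builds. The sources used here do not give the counter, the annotation or the strandedness. Per the file headers, the deposited table gives raw counts per gene, FPKM, the gene length in bases, and the authors' log2 fold changes and adjusted p-values for 4 comparisons. The deposited FPKM equal counts over length and library total in all 35275 genes, within a relative tolerance of 1e-06 (absolute under 1 FPKM). There were 12 other columns of per-library values, which were not used.

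Counts were scaled by TMM (edgeR 4.0.16, R 4.3.3), with factors of 1.15, 0.949, 0.968 and 0.947. In the knockout library at 8 months 3 counts equal 0.128 CPM. Single-library log2 differences used a prior count of 2 on genes that reached 2 CPM in any library. Their exact intervals at 95% (scipy 1.17.1) leave out the prior count. Tests were edgeR quasi-likelihood on age and genotype, with Benjamini-Hochberg adjustment at 0.05 over 13906 genes. They had 1 residual and 15.4 prior degrees of freedom, and a BCV (biological coefficient of variation) of 0.267. The simulated data used to check them held additive effects alone. That check cannot show how the tests behave where a genotype effect differs between ages. Alternatives were DESeq2 1.42.0, limma 3.58.1 with voom, other scalings, filters and prior counts, libraries left out, models without the other factor, and smoothed offsets (mgcv 1.9.3) for length and for GC share, which 97.8% of genes had.

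Named were the 7 core subunits, the 4 lowest and 4 highest subunits at 8 months and the 3 at 2 months, the 3 highest and 3 lowest by FPKM, the NDUFA4 family, every Ndufaf gene, the extremes of the mt-Nd genes, up to 3 genes of other lists and Cers6. Of these, 1 gene is not reported here and is not drawn in the figures of single genes, but counts and medians over the lists include it. Members and lists were chosen with earlier results of these data known. Of the Nduf list, Ndufb1 and Ndufa4l were not matched by symbol.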

Additional observations from a re-analysis of the deposited data

How the results depend on the processing

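The subunit medians kept their direction in the 4 comparisons of single libraries under every alternative run, namely median-of-ratios factors, library size alone, prior counts of 0.5 and 10, no level filter, both offsets, and mitochondrial and receptor genes left out. For knockout over wild type at 8 months, the subunits lower by 1.5-fold or more numbered 28 as reported, 16 with library size alone, 15 with length offsets and 14 with length and GC offsets, and the median was -0.54, -0.53 and -0.49. At 2 months the median was -0.0559 with length offsets and -0.030 with length and GC offsets. For 8 over 2 months in the knockout, 25 subunits were lower by 1.5-fold or more as reported, 4 with library size alone, 16 with length offsets and 14 with length and GC offsets, with medians of -0.42, -0.57 and -0.56, and with a prior count of 10, 0 were higher by 1.5-fold. Library size alone moved the median of all genes to 0.25 at 8 months and 0.24 by age in the knockout. How many of all genes were lower by 1.5-fold or more was not counted under these alternatives. The log2 ratio of summed levels was -0.51, -0.37 and -0.0533 with library size alone (8 months, age in the knockout, age in wild type), and -0.77 and -0.67 with median-of-ratios factors for 8 months and for age in the knockout. With 1 library left out and the other factor dropped, the median genotype effect ran from -0.83 to -0.17 with 0 subunits called, and the median age effect from -0.78 to 0.004 with 0 to 30 called. In those fits a lone library is assumed to vary like the others, so no conclusion is drawn from the counts called. The 30 came from the fit without the wild-type library at 8 months, where many genes outside the list were also called. That fit set the knockout library at 8 months against both libraries at 2 months, so age and genotype were not separated. The offsets in the additive model were chosen after the data were seen, and left 0 subunits called. The cause of these shifts was not tested. Of the single-gene values and the medians of all genes, 251 moved by more than the distance from the middle to the end of a counting interval, and 1221 did not. A reversal was counted only for values of 1.5-fold or more as reported, and none of those reversed. Smaller values that changed sign, as some did at 2 months, were not counted as reversed. No paired analysis was possible because each group has 1 library.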
